A study of Danio rerio with 2 samples.

Results

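The 10 mitochondrial genes ND1, ND2, COX1, COX2, ATP6, COX3, ND4, ND5, ND6 and CYTB were measured in whole zebrafish larvae. They encode core subunits of the respiratory chain and were chosen by their position, through the 17 windows of 1000 bp that cover the mitochondrial genome among 1345132 windows in all. Both groups were wild-type larvae, one kept in the solvent control DMSO and the other exposed to valbenazine at 10 µM. Each group was a single library from a pool of 50 whole larvae, and neither the age of the larvae nor the length of exposure is stated. Valbenazine is a blocker of the vesicular monoamine transporter, and the study's title asks about body growth and growth hormone signalling. With 1 library per group no value has a replicate error, and each comparison is one between 2 libraries without a test.

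The respiratory chain of the inner mitochondrial membrane passes electrons from NADH to oxygen and stores the energy as a proton gradient. Complex I (the ND proteins) takes electrons from NADH, complex III (CYTB) hands them to cytochrome c, complex IV (the COX proteins) gives them to oxygen, and complex V (ATP6) uses the gradient to make ATP. Most subunits of these complexes are encoded in the nucleus. Those of the mitochondrial genome are made from long transcripts that span many genes and are cut mostly at the tRNAs between them. The final level of each mRNA therefore depends on processing and decay as well as on transcription. Of the members, ND6 alone lies on the light strand, and the tracks carry no strand.

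The windows were given to genes by most overlap, if at least 400 bases lay in the gene, a limit set after seeing the overlaps. This gave 13 windows to 9 of the 10 genes, and 4 windows at the start of the sequence to none. Without the limit the window at 3001 to 4000, with 197 bases of ND1, would go to ND1. COX1 (6425 to 7975), ND4 (11298 to 12678), ND5 (12891 to 14709) and CYTB (15308 to 16448) had 2 windows each. ND1 (3804 to 4778), ND2 (4993 to 6039), COX2 (8130 to 8820), ATP6 (9050 to 9732) and COX3 (9734 to 10518) had 1 window each. ND6 (14710 to 15228) had no window of its own. Its 519 bases were split into 291 in a window held mostly by ND5 and 228 in one held mostly by CYTB, so no window gives a level of ND6 apart from its neighbours. Positions are on the mitochondrial sequence, counted from 1. The remaining mitochondrial protein genes share windows with members: ATP8 lies between COX2 and ATP6, and ND3 and ND4L lie between COX3 and ND4.

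The windows have the same length, apart from the last, which can be shorter, and genes were set side by side within a library by the depth of their windows. How the authors made a window value is not stated, so comparisons of levels between genes assume that it stands for a depth per base. The mitochondrial windows summed to a depth of 243531.5 in the DMSO library and 238966 in the valbenazine library, and the 13 windows with a gene held 97.9% and 98.0% of that. In each library 9 of the 17 windows were among the 1000 deepest of the series. No mitochondrial window had the same value as its neighbour. The number of reads behind these depths is unknown, as is the placing of reads that also match nuclear copies of mitochondrial sequence.

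**Figure D1:**
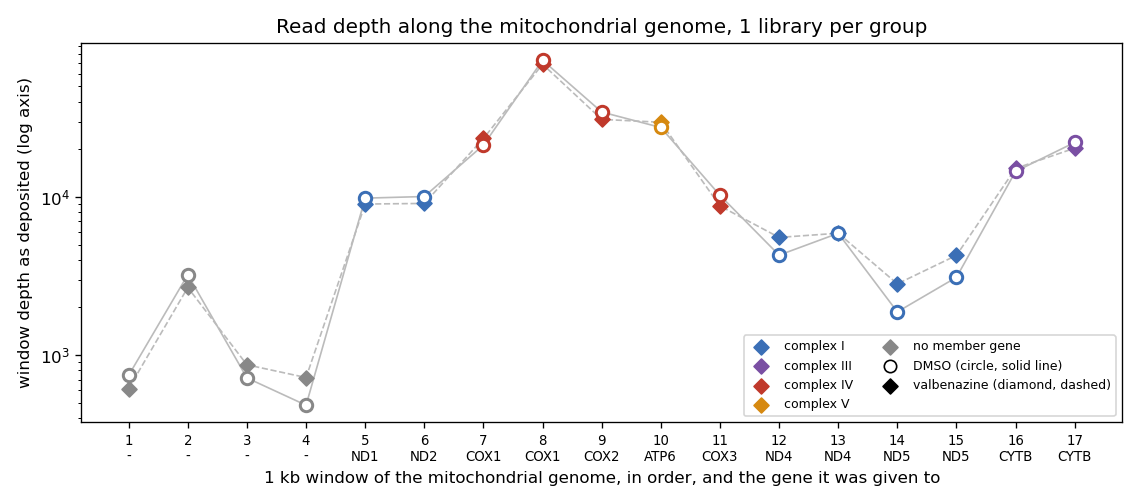
Deposited depth (log axis) of the 17 mitochondrial windows in their order along the sequence, with DMSO as open circles and valbenazine as filled diamonds, coloured by complex. Both libraries peak at the second window of COX1 (73229 and 69115). Of the windows given to a member, the first window of ND5 is the lowest in both (1875 and 2820.5).

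The COX1 mRNA, for the catalytic subunit of complex IV, had the deepest coverage and ND5, for a proton-pumping subunit of complex I, the shallowest. COX1 had depths of 21293.5 and 73229 in its 2 windows in DMSO and of 23428 and 69115 in valbenazine. ND5 had depths of 1875 and 3101 in DMSO and of 2820.5 and 4270 in valbenazine. The mean depth of COX1 was therefore 19.0 times that of ND5 in DMSO and 13.1 times in valbenazine.

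Between these extremes the genes fell in a similar order in both libraries. COX2, whose protein accepts electrons from cytochrome c, was second with 34446.5 in DMSO and 30946 in valbenazine. ATP6, for the subunit that forms the proton path of the ATP synthase, was next with 27497.5 and 29683.5. CYTB, for cytochrome b of complex III, followed with window depths of 14506 and 22114.5 in DMSO and of 15153 and 20351 in valbenazine. These 4 genes, COX1 included, kept ranks 1 to 4 in both libraries.

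By their single windows COX3, ND2 and ND1 had nearly equal depths. COX3, for the remaining core subunit of complex IV, had 10242.5 in DMSO and 8764 in valbenazine. ND2, for another proton-pumping subunit of complex I, had 10062.5 and 9099. ND1, for a subunit next to the quinone site of complex I, had 9826 and 9017. In DMSO COX3 was 1.02 times ND2 and 1.04 times ND1, and in valbenazine it was below both, at 0.963 and 0.972 times. These were the 2 of 36 gene pairs whose order differed between the libraries. The level of COX3 depends on how windows are shared out, since 267 of its bases lie in the deeper window given to ATP6. With each window weighted by its bases in the gene, COX3 had 16111 in DMSO and 15879 in valbenazine, 1.54 and 1.65 times ND2. ND2 was then 1.32 times ND1 in DMSO and 1.31 times in valbenazine, so the 3 genes were no longer nearly equal. For ND1 the weighting brings in the shallow window at 3001 to 4000 (481.5 in DMSO, 720.5 in valbenazine). Only 197 bases of that window lie in ND1, and it was left out of the unweighted level. The lower weighted depth of ND1, 7938 in DMSO and 7341 in valbenazine, comes from that window. No pair changed its order with this weighting. ND4, for a further proton-pumping subunit, was eighth with 4284.5 and 5888 in DMSO and with 5546.5 and 5894.5 in valbenazine.

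Depth was uneven within genes as well. The second window of COX1 was 3.44 times as deep as the first in DMSO and 2.95 times in valbenazine. The first of these windows has 576 bases in COX1 and the second has 975. In ND4, ND5 and CYTB the second window was deeper too, by 1.37, 1.65 and 1.52 times in DMSO and by 1.06, 1.51 and 1.34 times in valbenazine. In each of the 4 genes with 2 windows the contrast was thus smaller in the valbenazine library. How often other neighbouring windows do the same was not measured. Among nuclear windows, too, the ratio of valbenazine to DMSO was lower at greater depth, as given below, so this is not shown to be particular to these genes. Several windows also hold bases outside their gene, such as 267 bases of COX3 in the window of ATP6 and 482 bases outside any member in that of COX3. The second window of CYTB, with 448 bases of the gene, is the last of the sequence, which can be shorter than the others. The levels of CYTB and of complex III rest in part on it.

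**Figure D2:**
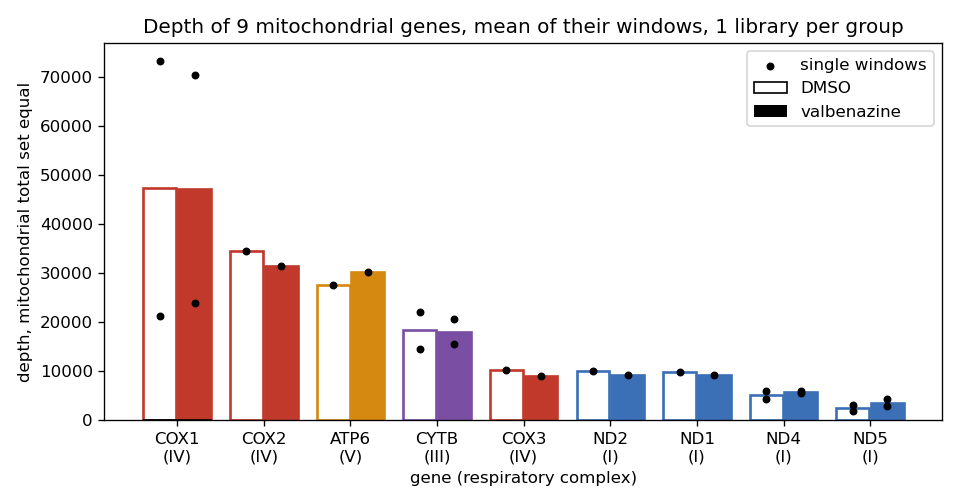
Depth of the 9 genes with a window, ordered by DMSO, as the mean of their windows (bars) and as single windows (points), with valbenazine scaled so that both libraries have the same mitochondrial total. The complex IV genes COX1 and COX2 lead and the complex I genes ND4 and ND5 are last in both libraries, and COX1 shows the widest gap between its windows.

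By complex, complex IV held most of the signal. The depths of COX1, COX2 and COX3 made up 55.7% of the summed depth of the 9 genes in DMSO and 53.5% in valbenazine. Complex I, with 4 genes, held 16.6% and 17.03%. ATP6 alone held 16.6% and 18.5%, and CYTB alone 11.1% and 11.0%. Per gene, complex IV had 4.46 times the depth of complex I in DMSO and 4.19 times in valbenazine. These values depend on how windows are shared out, since the window of ATP6 also holds bases of COX3. With depth weighted by overlap complex IV held 59.5% and 57.5%, and complex I 14.9% and 15.3%. With the window at 3001 to 4000 counted for ND1, complex I held 14.2% and 14.8%, and its depth per gene would be lower. Members of 1 complex did not share 1 level. COX1 was 4.61 times COX3 in DMSO and 5.28 times in valbenazine, or 3.35 and 3.28 times with depth weighted by overlap. The ND genes ranged from 2488 to 10062.5 in DMSO and from 3545.25 to 9099 in valbenazine, as means over their windows.

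**Figure D3:**
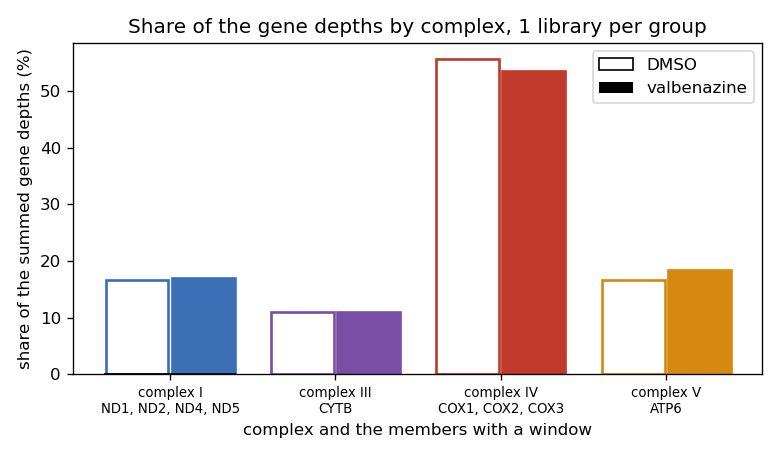
Share of each complex in the summed depth of the 9 genes, in percent, with DMSO open and valbenazine filled. Complex IV holds 55.7% and 53.5%, and the share of ATP6 is 16.6% and 18.5%.

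For the comparison between the libraries, the valbenazine depths were scaled so that both libraries had the same mitochondrial total. ND5 was then the gene with the largest difference. Its mean depth was 45.2% higher in valbenazine, a log2 ratio of 0.54, and both of its windows were higher, by 53.3% and 40.3%. ND4 was 14.6% higher (log2 ratio 0.20), but its windows differed: the first was 31.9% higher and the second 2.02% higher. The first also holds 297 bases outside the members, before ND4, on the side where ND3 and ND4L lie. ATP6 was 10.0% higher (log2 ratio 0.14).

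The other 6 genes were level or lower. COX3 had the lowest log2 ratio, -0.20, with a scaled depth of 8931.46 in valbenazine against 10242.5 in DMSO. With depth weighted by overlap it was at 0.0064, and COX2 was then the lowest. COX2 had a log2 ratio of -0.13, ND2 one of -0.12 and ND1 one of -0.10. CYTB (-0.02) and COX1 (-0.0032) were close to 0, and their windows lay on either side of it: 0.09 and -0.09 for CYTB, 0.17 and -0.06 for COX1. The direction of ratios this small rests on the scaling, since all log2 ratios shift by -0.10 when all windows of the library set the total and by -0.42 when the median ratio of covered windows is set to 1.

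No member window reached a 2-fold difference. At a smaller limit, a log2 ratio of 0.32 in either direction, 4 of the 17 windows were higher in valbenazine and 0 were lower. The higher windows were the first window of ND4, both windows of ND5 and the window at 3001 to 4000, which has 197 bases of ND1. Among all 7810 windows of the series with at least the depth of the shallowest mitochondrial window, 23.0% were higher by that limit at the same scaling and 11.0% were lower, and 1.63% and 1.28% passed 2-fold. The share of mitochondrial windows that were higher is therefore near the background, and the count does not set these genes apart. With library totals 3 mitochondrial windows were higher and 2 lower, against 13.1% and 17.4% of all windows compared, and with the median ratio set to 1 there were 0 higher and 10 lower, against 3.51% and 55.5%. These mitochondrial counts are over all 17 windows. At these other scalings the window at 3001 to 4000 falls below the depth asked of the windows compared. With the median ratio set to 1 the first window, one of the 10 lower ones, falls below it too. The sets are therefore not quite alike. The median log2 ratio was 0.03 over the 17 mitochondrial windows and 0.07 over the 7793 nuclear windows.

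**Figure D4:**
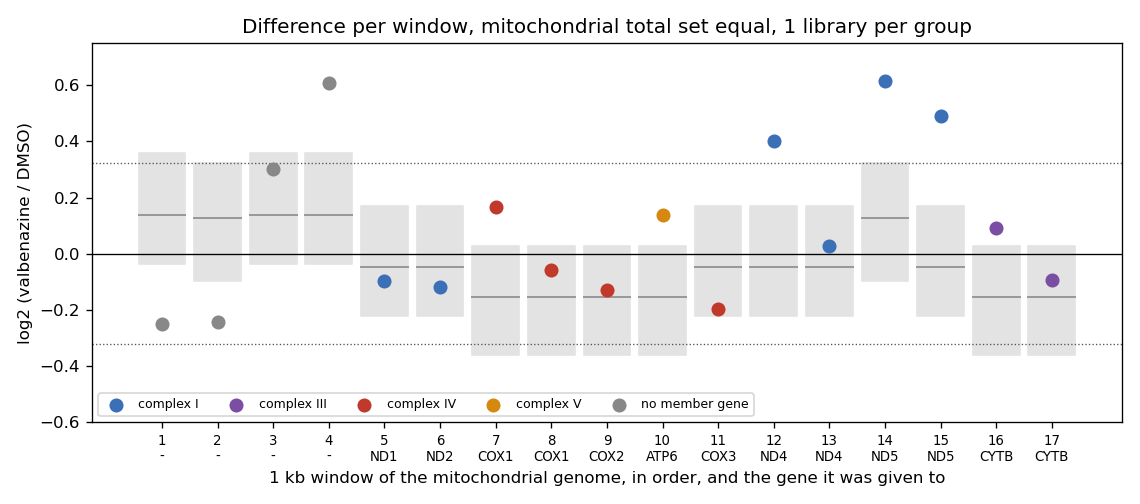
Log2 ratio of valbenazine to DMSO for the 17 windows in order, with both mitochondrial totals set equal. Dotted lines mark 0.32 and -0.32, and each grey bar gives the quartiles and median of nuclear windows of similar depth. Both ND5 windows (0.62 and 0.49) and the first ND4 window (0.40) lie above their bars, while the second ND4 window (0.03) lies within its bar. The windows of ATP6 (0.14), the first of COX1 (0.17), the first of CYTB (0.09) and the one at 3001 to 4000 (0.61) also lie above. The first and second windows of the sequence (-0.25 and -0.24) lie below their bars.

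Depth moved with the ratio across the series, so each window was also set beside nuclear windows of its depth class. The median log2 ratio of nuclear windows was 0.13 at a depth of 1000 to 3000 and -0.05 at 3000 to 10000, with upper quartiles of 0.32 and 0.17. At 10000 and above it was -0.15, with an upper quartile of 0.03. The ND5 windows, at 0.62 and 0.49, were above the upper quartiles of their classes, as was the first window of ND4 at 0.40. In the deepest class the windows of ATP6 (0.14), the first of COX1 (0.17) and the first of CYTB (0.09) were above the upper quartile as well. None of the 13 windows with a gene was below the lower quartile of its class. Of the windows given to no gene, the first and second (-0.25 and -0.24) were below it. The last of them (0.61) was above the upper quartile. By definition quartiles leave a fixed share of nuclear windows outside on each side, so lying outside them is not rare. Across the 13 windows with a gene Spearman's rho between depth and log2 ratio was -0.45, and across all 17 it was -0.24. Neighbouring windows share transcripts and all share the same libraries, so these are descriptions. The part of depth in the ND5 difference was not tested.

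Ratios between genes inside one library do not depend on any scaling. All 8 pairs that contain ND5 shifted by a log2 value of at least 0.32 between the libraries, out of 11 such pairs among 36. Of those 11 pairs, 10 contained ND4 or ND5, and the other was ATP6 with COX3, at 2.68 times in DMSO and 3.39 times in valbenazine. With depth weighted by overlap 8 pairs shifted that far, 7 of them with ND5 and the remaining one with ND4. The pair of ATP6 and COX3 was then at 1.71 and 1.87 times and below the limit, and ND4 with ND5 fell short of it as well, at a log2 shift of -0.29. The ratio of COX3 to ND5 moved from 4.12 to 2.47, or from 6.21 to 4.45 with depth weighted by overlap. That of COX2 to ND5 went from 13.8 to 8.73 (weighted, 13.3 to 8.67), and that of ND1 to ND5 from 3.95 to 2.54 (weighted, 3.06 to 2.06). These pairs share ND5, rest on the same depths as its log2 ratio above and are not separate observations. The weighted depth of ND1 includes the shallow window at 3001 to 4000, which lowers its weighted ratios to ND5. How often pairs of other windows shift that far was not measured, so the pair counts have no background beside them.

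The complex I genes therefore did not differ as a block. The summed depth of ND1 and ND2 was 19888.5 in DMSO and 18116 in valbenazine, and that of ND4 and ND5 was 7574.25 and 9265.75. The first sum was 2.63 times the second in DMSO and 1.96 times in valbenazine. Both ratios would be smaller with the window at 3001 to 4000 counted for ND1. This grouping was made after the values were seen. In the sum over the 4 genes the differences offset each other, and the deeper ND1 and ND2 made up most of that sum. Complex I, taken as the sum of these genes only, had a log2 ratio of 0.02. Complex III was at -0.02, complex IV at -0.07 and complex V at 0.14. Without COX1, its deepest gene, complex IV was at -0.14. In whole larvae, fewer cells of a type and less RNA per cell cannot be told apart.

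ND6 could be described only through the windows it shares. The window with 291 of its bases had a depth of 3101 in DMSO and 4270 in valbenazine, and the window with 228 of its bases had 14506 and 15153. Weighted by its bases in each, these give 8111 in DMSO and 9051 in valbenazine, a mixture that is not a level of ND6. Most bases of these windows belong to ND5 and CYTB, which lie on the other strand, and reads of the strands cannot be told apart in these tracks.

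The 4 windows given to no gene cover the beginning of the sequence and the genes mt-rnr1 and mt-rnr2 for the RNA of the mitochondrial ribosome. The last of these windows also holds 197 bases of ND1. Apart from the second, they were shallower than every window given to a member in both libraries. In DMSO the second was deeper than both ND5 windows (1875 and 3101). Together the 4 windows held 2.12% of the mitochondrial depth in DMSO and 2.04% in valbenazine. Their depths in order were 744.5, 3222.5, 716.5 and 481.5 in DMSO and 614, 2675.5, 867.5 and 720.5 in valbenazine. The first and second were lower in valbenazine, at log2 ratios of -0.25 and -0.24, and the other two higher, at 0.30 and 0.61. Libraries were made with an mRNA kit, and how it treats mitochondrial ribosomal RNA was not tested.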

How the data were processed

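The files deposited by the authors hold signal, the depth of reads in successive windows of 1000 bp, without gene names, strand or read number. No label or header states how a window value was made. HISAT2 and the mouse build mm10 are named, per the submitters' processing notes, but the tracks have 25 numbered chromosomes and MT, which are not those of mouse. Libraries came from pools of 50 larvae, per the labels' protocols. The values were used as deposited. A window went to the member gene with most of its bases, if at least 400 lay in it, a limit set after seeing the overlaps. The window at 3001 to 4000 has only 197 bases in ND1 and 803 before it, in the part that holds mt-rnr2, and was given to no gene. All 10 members were found by symbol in the RefSeq gene table of GRCz12tu, which served for names and gene order only. A gene's level is the mean depth of its windows. All 10 members were to be named, with each window's depth. The members, limits and comparisons were chosen with earlier results of these data known. No sequence of these genes is shown. Ratios carry no pseudocount. The steps were tested on simulated data. Scaling, assignment and averaging were varied. Nuclear genes of the respiratory chain were not analysed here. Python 3.11.15, numpy 2.4.6, pandas 2.3.3 and matplotlib 3.10.9 were used.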

Additional observations from a re-analysis of the deposited data

How the results depend on the processing

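No replicate could be left out, and no paired analysis was possible because each group has 1 library. Scaling moves all ratios by one amount. With library totals the log2 ratios of complexes I, III, IV and V were -0.078, -0.12, -0.17 and 0.037, and under median-ratio scaling -0.39, -0.43, -0.49 and -0.28. The number of mitochondrial windows lower by a log2 ratio of at least 0.32 was 2 with library totals and 10 under median-ratio scaling, where 0 were higher. With mitochondrial totals set equal, a pseudocount of 11 left 4 higher and 0 lower windows. ND5 had the highest ratio of the genes under each of the 8 alternatives. Its ratio lay between 0.12 (median-ratio scaling) and 0.62 (windows with at least 900 bases in the gene, which left 3 genes). The scalings shift all genes alike and the median changes no gene, so these alternatives could not alter that rank. Of the genes, counting the window at 3001 changed ND1 alone. With depth weighted by overlap, where the order could change, ND5 was at 0.49. Under median-ratio scaling ND4 was at -0.22 and ATP6 at -0.28. With depth weighted by overlap, COX3 was at 0.0064 and CYTB at 0.0024, complex IV held 59.5% and 57.5% of the gene depths in DMSO and valbenazine, and all 36 pairs were in the same order in both libraries. With the window at 3001 counted for ND1, an alternative added after seeing the data, complex I held 14.2% and 14.8%. Then 34 of 36 pairs kept their order, and ND1 with ND4 was among those that did not. The median over windows equals the mean for genes with 1 or 2 windows. A difference under 0.1 on the log2 scale or 2 percentage points was taken as no move. The cause was not tested beyond what each construction shows. The read number is unknown, which leaves the counting error of each depth unknown.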
